A study of Mus musculus with 12 samples.

Results

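Lenses homozygous for Epha2-indel722, an insertion-deletion allele of the tyrosine kinase domain of EPHA2, were compared with wild type lenses at postnatal day 7 by RNA-seq. The comparison used the 3 Epha2-indel722 and 3 wild type libraries, 6 of the 12 in the series, and all 8676 genes of the deposited table. The remaining libraries came from lenses homozygous for the missense allele Epha2-Q722 or for Epha2-null (3 each), and they entered the model that estimates the spread between libraries. The indel722 allele joins a small insertion at the codon that gives it its number, in exon 13, to a deletion of the coding bases just downstream, after which the reading frame is restored. It was found in 1 off-target founder of the CRISPR/Cas9 editing that also made Epha2-Q722, so the line descends from a single edited animal, later bred with B6J mice. All groups are labelled as strain C57BL/6J, and each library was made from polyA RNA of several pooled lenses. The comparison asks which transcripts differ in the lens when the EPHA2 kinase domain is disrupted, early in the growth of the lens phenotype.

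EPHA2 is a receptor tyrosine kinase that binds ephrin ligands on neighboring cells and signals through its kinase domain to Src-family kinases, small GTPases and the actin cortex. The lens is a ball of epithelial and fiber cells, in which epithelial cells at the equator elongate into fibers, align into hexagonal columns, fill with crystallins and lose their organelles. EPHA2 is known in the mouse lens for its part in that alignment and in the meeting of fiber tips at the sutures, and variants of the human gene cause or predispose to cataract.

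The reference sequence around that codon is shown because it is the site of the edit. It is taken from the GENCODE vM21 transcript on mm10, plus strand, at chr4:141322227-141322325 (codons 715 to 747), and capitals mark the edited codon and the histidine-arginine-aspartate triplet of the catalytic loop (codons 738 to 740).
Epha2 reference: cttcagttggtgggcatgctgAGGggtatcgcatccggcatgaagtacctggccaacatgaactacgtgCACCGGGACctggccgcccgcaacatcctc

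Epha2 itself, which the study had already listed as lower in these lenses, was looked at first. Its normalized level in CPM (counts scaled to library size with the TMM factors of edgeR) was 21.6, 19.97 and 20.4 in the Epha2-indel722 libraries, against 63.1, 51.4 and 56.0 in the wild type libraries, so the groups did not overlap. The log2 fold change was -1.46 (standard error 0.089, adjusted p = 1.4e-10). A count over the whole gene does not tell edited from unedited transcript, and the edited bases themselves were not read from these files. The p-values here and below come from edgeR's quasi-likelihood test with Benjamini-Hochberg adjustment over all 8676 genes, and they measure the spread between lens pools.

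Library totals were 18434188 to 20072832 counts in Epha2-indel722 and 14543069 to 19874646 in wild type. Spearman correlations over all genes were 0.991 to 0.993 among the Epha2-indel722 libraries, 0.989 to 0.991 among the wild type libraries and 0.973 to 0.977 between the groups. Crystallins took 558756 to 643099 normalized CPM in Epha2-indel722 and 681971 to 727196 in wild type, most of the total in all 6 libraries. These values are not shares of reads, because normalized CPM do not add up to the same total in each library. The TMM factors were 0.945 to 1.056 in Epha2-indel722 and 0.886 to 0.913 in wild type, so shares of reads lie closer together. Of 119 markers in 9 lists for other cell types, 12 were measured, and their summed level was 150.0 to 175.8 normalized CPM in Epha2-indel722 against 145.6 to 168.8 in wild type. None of the markers of red blood cells, macrophages and leukocytes, corneal epithelium or skeletal muscle was measured. Every gene of the deposited table reached 3 CPM in at least 6 libraries of the series. A marker below that level, or present in a single genotype, could thus not be listed, and its absence does not show that the cell type was absent. The only marker that changed, the glial water channel gene Aqp4, fell (log2 fold change -0.77, adjusted p = 0.00061). The pools differed in their mix of sexes. Xist, the RNA of the inactive X chromosome of females, had 35.0, 36.7 and 17.3 normalized CPM in Epha2-indel722 against 6.85, 0.177 and 22.5 in wild type, and the Y-linked Ddx3y had 9.39, 8.87 and 14.6 against 18.1, 25.2 and 8.57. The groups overlapped for both genes and neither passed the test (adjusted p = 0.47 and 0.67). Of 3 tested genes on the Y chromosome, 1 passed the test and was at least 2-fold higher in Epha2-indel722. Wild type replicate 2 was nearly without Xist, and the part of the sex mix in the results was not tested. In pooled tissue, fewer cells of a type and less RNA per cell cannot be told apart.

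Most of the transcript changes in Epha2-indel722 lenses were small. At an adjusted p of at most 0.05, 1137 genes changed (13.1% of those tested), of which 584 rose (6.73%) and 553 fell (6.37%). The change was below 1.5-fold in 858 of them, 1.5-fold to 2-fold in 191, 2-fold to 4-fold in 62 and at least 4-fold in 26, and the median size of the called changes was 0.40 on the log2 scale. With the additional demand of a fold change of at least 2, the threshold of the study, 88 genes changed (1.01%), 38 higher (0.438%) and 50 lower (0.576%). All 88 had no overlap between the 3 Epha2-indel722 and the 3 wild type libraries, which was true of 32.0% of all genes. The scaling sets the balance of the changes: with library totals in place of TMM factors the median over all genes moved to a log2 fold change of 0.17, and 2178 genes rose and 210 fell. At a fold of at least 2, 66 genes were then higher and 39 lower. The study's own edgeR comparison at these thresholds also listed more genes up than down, unlike the 38 and 50 found here with TMM factors. Below, "rose" and "fell" refer to TMM-scaled values at an adjusted p of at most 0.05, and counts with library totals are given where they turn the balance of a gene list. The lists were chosen with earlier results of these data known, so their shares describe the listed members and do not test a class of genes. Leaving out 1 library lowered the rises over all genes to between 369 and 468 and the falls to between 379 and 443. Many lists that moved by more than 1.5 times have their counts given beside them, but not all do.

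**Figure D1:**
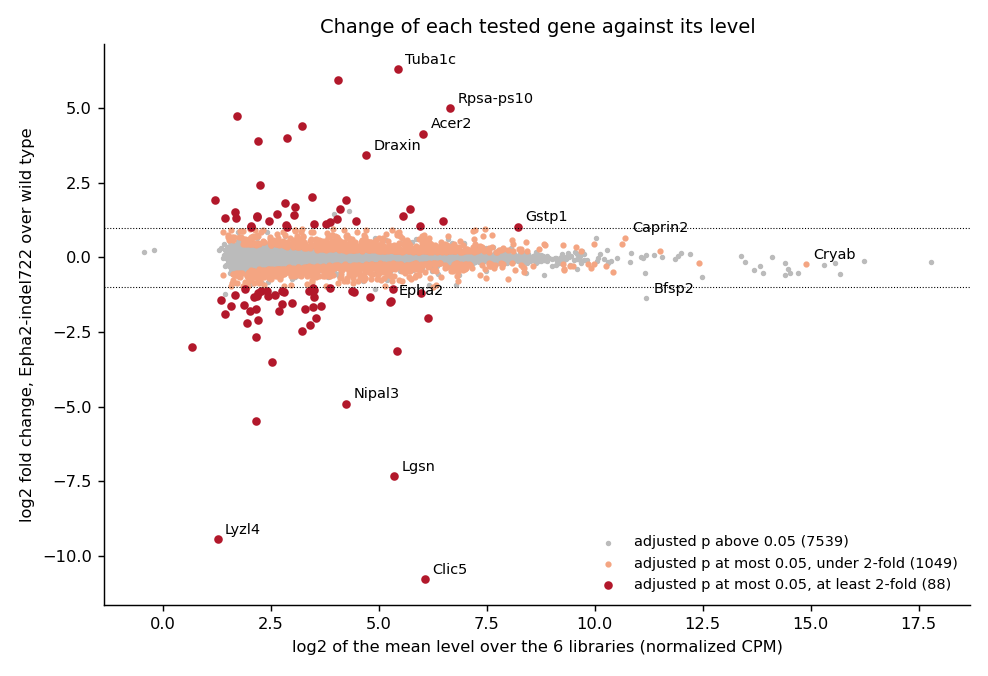
Log2 fold change (Epha2-indel722 over wild type, vertical axis) of each of the 8676 genes against the log2 of its mean normalized CPM over the 6 libraries. The 88 genes past both thresholds lie beyond the dotted lines of 2-fold change, mostly at low levels, with Clic5, Lyzl4 and Lgsn at the bottom and Tuba1c at the top, while 1049 genes passed the adjusted p with a smaller change.

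The deepest falls included genes of the fiber cell. Clic5, a member of the chloride intracellular channel family that associates with ezrin and the actin cortex, had 0, 1 and 3 counts in the Epha2-indel722 libraries against 1895, 2057 and 2384 in the wild type libraries. Pooled over the libraries of a group, its scaled level was 1948-fold lower (95% exact interval 760 to 7151, counting error only; adjusted p = 4.4e-05). Lgsn encodes lengsin, a lens-specific protein of the glutamine synthetase fold found in maturing fibers. It had 0.472, 0.542 and 0.459 normalized CPM in Epha2-indel722 against 83.2, 75.7 and 84.3 in wild type (log2 fold change -7.34, standard error 1.07, adjusted p = 0.0025). Both genes were close to absent in all 3 mutant pools and even across the wild type pools. Lgsn also varied within another mutant of the same fit, with 0.582, 24.6 and 18.6 normalized CPM in the Epha2-Q722 libraries.

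Other genes with at least 4-fold losses have varied functions. Lyzl4, which encodes a lysozyme-like protein, had no count in any Epha2-indel722 library against 57, 85 and 90 counts in wild type, a level at least 95.1-fold lower when the mutant group is set to 3 counts over its 3 libraries. Nipal3, a gene of a family of magnesium transporters, had 1.46, 1.08 and 1.09 normalized CPM against 38.5, 32.0 and 39.8 (log2 fold change -4.90, adjusted p = 1.4e-17). Camk2n1, which blocks the kinase CaMKII, had 0.330, 0.197 and 0.517 against 3.01, 3.35 and 2.10 in wild type. Rab6b, a small GTPase of Golgi traffic, had 2.78, 3.01 and 2.64 against 16.8, 15.7 and 14.7 (log2 fold change -2.47, adjusted p = 3.1e-14). In all 4 the groups stood far apart. Efhd2, a calcium-binding protein of the actin cytoskeleton, was the most abundant of the 15 deepest falls after Clic5, with 24.4, 25.8 and 31.8 normalized CPM in Epha2-indel722 against 117, 102 and 119 in wild type (log2 fold change -2.04, adjusted p = 1.2e-09). Also among the 15 were the class I histocompatibility gene H2-T24 (-5.49), the securin gene Pttg1 (-2.68), the interferon-induced antiviral gene Rsad2 (-2.28), the secreted glycoprotein gene Lgals3bp (-2.19), the zinc finger gene Zfp758 (-2.09) and Avp, the precursor of vasopressin (-2.02). The antisense transcript Gm13091 fell too (-3.15), but it lies across Rere on the opposite strand, and no strand setting of the counting is given in the sources used here. Of the 88 genes, 33 overlap a gene on the opposite strand, against 3929 of all 8676, so their reads cannot be fully assigned.

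Bfsp2, which encodes phakinin (CP49), a subunit of the lens-specific beaded filament, was unequally low among the mutant pools. It had 2352, 634 and 940 normalized CPM in the Epha2-indel722 libraries against 3352, 3297 and 3468 in the wild type libraries. The first mutant pool thus kept most of the wild type level and the other 2 much less, yet none overlapped wild type. The log2 fold change was -1.37 (standard error 0.422) and did not pass the test (adjusted p = 0.074). Without Epha2-indel722 replicate 1 it was -2.10 (adjusted p = 9.9e-05). DESeq2 on all 12 libraries gave adjusted p = 0.015. On the 6 libraries alone edgeR's classic exact test gave 2e-05 and the quasi-likelihood test 0.22. The adjusted p of the other alternatives was 0.062 to 0.20. Bfsp1, which encodes the partner subunit filensin, had 11301, 10556 and 11084 normalized CPM against 10828, 9769 and 11146 (log2 fold change 0.05, adjusted p = 0.69). A deletion in Bfsp2 is known in some inbred mouse strains, and the study's methods name breeding with B6J as a way to remove it. Which allele of Bfsp2 these pools carried was not tested.

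Few other genes varied so much between the mutant pools. Of 5329 genes with a mean of at least 10 normalized CPM in Epha2-indel722, 15 had a highest library at least 2-fold above the lowest. The same held for 7 of 5345 genes in wild type, 30 of 5359 in Epha2-Q722 and 18 of 5389 in Epha2-null. Such genes were thus more frequent than in wild type but less frequent than in either other mutant. In 6 genes a range of at least 2-fold was reached in Epha2-indel722 and in no other genotype with a mean of at least 10 normalized CPM. They were Bfsp2 (3.71-fold), Rps3a3, the iron regulator gene Hfe, Tuba1c, the aldehyde dehydrogenase gene Aldh9a1 and the transporter gene Slc22a17. Genotypes with a lower mean were left out of this count. At such low levels Tuba1c ran from 0.527 to 1.65 normalized CPM in wild type, and Rps3a3 from 0.288 to 0.738 in Epha2-null. Hfe had 32.3, 34.8 and 13.4 normalized CPM in Epha2-indel722 against 43.2, 45.1 and 48.0 in wild type, so that pool 3 stood apart, while for Slc22a17 pool 3 was the highest. Hfe, Aldh9a1 and Slc22a17 were picked for this spread, and none passed the test.

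**Figure D2:**
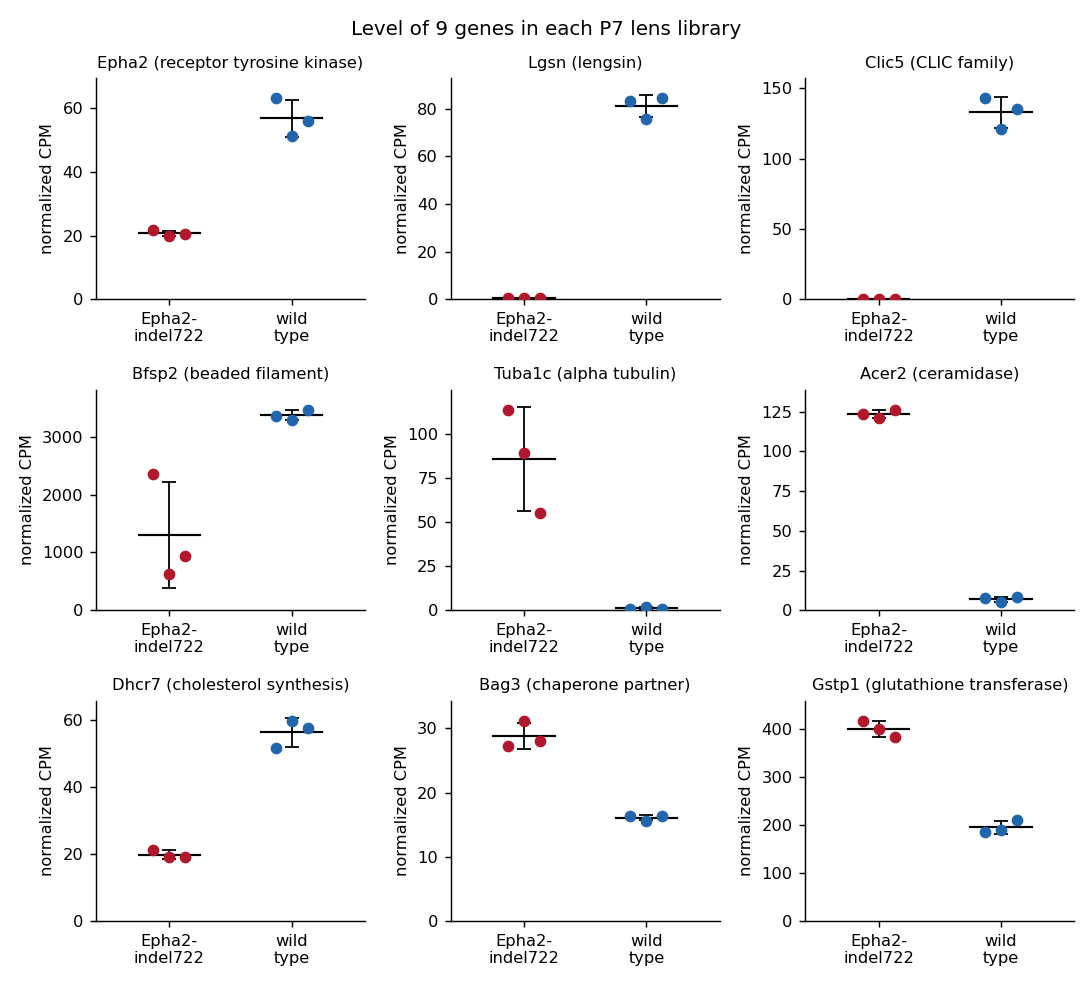
Normalized CPM (vertical axes, from 0) of 9 genes in the 3 Epha2-indel722 libraries (red, left) and the 3 wild type libraries (blue, right), with the mean (line) and SD (bars) of each group. In 7 genes the points of a group lie close together relative to the gap between groups, whereas Bfsp2 spreads from 634 to 2352 in Epha2-indel722, and Tuba1c from 55.0 to 114.

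The largest rises apart from near-identical copies were of genes of varied function. Acer2, an alkaline ceramidase that turns ceramide into sphingosine, had 123, 121 and 126 normalized CPM in Epha2-indel722 against 7.45, 5.30 and 8.18 in wild type (log2 fold change 4.15, standard error 0.109, adjusted p = 8.9e-16). Draxin, a secreted axon guidance and Wnt-inhibiting protein, had 49.5, 47.9 and 45.6 against 4.22, 4.88 and 4.14 (3.43, adjusted p = 2.6e-17). Its opposite-strand neighbor Mad2l2 rose as well (1.03), and reads over their shared bases cannot be assigned. Dcdc2a, a doublecortin-domain protein of microtubules and cilia, had 8.35, 7.54 and 7.92 against 1.13, 1.77 and 1.48 (2.42, adjusted p = 2.5e-09), and Grik3, a kainate-type glutamate receptor subunit, 17.3, 17.7 and 17.4 against 4.44, 4.24 and 4.32 (2.01, adjusted p = 6.4e-11). These rises were even across the pools. Cabp5, a calcium-binding protein related to calmodulin, averaged 29.9 ± 4.47 against 7.89 ± 0.729 normalized CPM (SD, n = 3 each), and Wdfy1, an endosomal adaptor of Toll-like receptor signaling, 3.65 ± 0.935 against 0.945 ± 0.183.

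Further rises of at least 2-fold were spread over genes of different roles. Slc7a11, the cystine-glutamate exchanger that supplies cysteine for glutathione, had 89.0, 84.5 and 63.0 normalized CPM in Epha2-indel722 against 19.8, 35.6 and 21.8 in wild type (log2 fold change 1.61, standard error 0.235, adjusted p = 0.0025). Slc1a4, a neutral amino acid transporter, averaged 67.9 ± 5.80 against 26.3 ± 1.37 (1.37, adjusted p = 0.0063). Gstp1, the pi-class glutathione transferase, had 416, 399 and 383 against 185, 190 and 211 (1.03, adjusted p = 4.5e-11), and its near-identical neighbor Gstp2 rose with it (1.30). Ece1, the endothelin-converting enzyme, averaged 126.1 ± 6.26 against 53.9 ± 2.77 (1.23, adjusted p = 1.5e-12). Dusp4, a phosphatase that switches off ERK-type kinases, averaged 15.4 ± 1.35 against 7.11 ± 0.995 (1.11, adjusted p = 3.7e-07).

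Among changes below 2-fold, the genes of smallest p also had varied functions. The protease inhibitor gene Cst3 (cystatin C) had 215, 218 and 260 normalized CPM in Epha2-indel722 against 119, 114 and 120 in wild type (log2 fold change 0.97, adjusted p = 3.5e-07), and the aspartate hydroxylase gene Asph (0.92), the trans-Golgi gene Tgoln1 (0.91), the histone chaperone gene Nasp (0.86), the G-protein regulator gene Rgs8 (0.83) and the autophagy receptor gene Optn (0.61) rose with similarly small errors. Falls of this kind were those of the secreted peptidase-inhibitor-like gene R3hdml (-0.97), Zfp365 (-0.92), the matrix genes Ccdc80 (-0.78) and Pcolce (-0.71), the amino acid transporter gene Slc38a4 (-0.75) and Mxd1 (-0.62), a partner of MAX that opposes MYC. By absolute level, the largest rises were of Caprin2, Eif5b, Crygn and Sptbn1 and the largest falls of Cryab, Mip, Hmox1, Hspa8 and Maf.

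Part of the strongest rises lay in genes with a near-identical partner, so that the assignment of a read can rest on a few bases. Of the 38 rises of at least 2-fold, 7 were of annotated pseudogenes, which make up 79 of the 8676 genes, and 0 of the 50 falls were. The demand of 3 CPM in at least 6 libraries shapes this contrast. A copy near silent in wild type, such as Atp6v0c-ps2 (mean 0.846 normalized CPM), could be listed only through mutant libraries in which it is higher. Among the near-identical pairs, the clearest case is Rpsa-ps10, a processed copy on chromosome 3 of Rpsa (chromosome 9). Rpsa encodes a protein of the small ribosomal subunit. Over the 885 coding bases compared, the 2 differ at 6. A stretch of coding bases 160 to 219 holds 2 of those differences and is shown to make plain how alike the genes are, with the differing bases in capitals. It lies in mm10 at chr9:120129184-120129243 on the plus strand for Rpsa and at chr3:150073324-150073383 on the minus strand for the copy.
Rpsa: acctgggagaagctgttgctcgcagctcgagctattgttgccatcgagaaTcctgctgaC
Rpsa-ps10: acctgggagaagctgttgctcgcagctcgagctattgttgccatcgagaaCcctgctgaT

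Rpsa-ps10 had 197.2, 197.0 and 190.7 normalized CPM in Epha2-indel722 against 5.87, 6.53 and 5.73 in wild type, while Rpsa had 546, 531 and 531 against 718, 695 and 736. The copy was higher by 188.9 on average and the parent lower by nearly as much. Their sum was 731 ± 10.98 in Epha2-indel722 and 722.3 ± 20.3 in wild type (SD, n = 3 each). Rps3a3, on chromosome 13, and its parent Rps3a1 shared this pattern: the copy had 49.3, 31.6 and 17.2 normalized CPM against 0.527, 0.471 and 0.568, and the parent 125.3, 152.8 and 176.8 against 194.3, 199.0 and 199.1. The pool with the most reads on the copy had the fewest on the parent, and the sum with the further copy Rps3a2 was 189 ± 9.03 against 200.6 ± 3.15. The difference in Rpsa and Rps3a1, both counted as falls, is therefore uncertain.

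The other sets added up to a varying degree. The sum of Hmga1b and Hmga1, which encode a DNA-bending chromatin protein, was 15.5 ± 1.84 normalized CPM in Epha2-indel722 against 18.1 ± 0.549 in wild type, with 6.33 against 0.216 for Hmga1b alone. Gm9825 and its parent Rnps1, a splicing factor gene, summed to 39.5 ± 1.502 against 54.8 ± 2.47, and Rpl14-ps1 with Rpl14 to 313.7 ± 12.8 against 378.4 ± 12.5. In these 3 sets the sum was lower in the mutant. Atp6v0c-ps2 with Atp6v0c, the proton-pore subunit gene of the vacuolar ATPase, summed to 18.8 ± 1.003 against 11.3 ± 0.979, so that the sum was higher although the parent fell (log2 fold change -3.50). Tuba1c, an alpha-tubulin gene whose transcript is 99.4% identical to that of Tuba1b and 98.5% to that of Tuba1a over 1307 aligned bases, had 113.5, 89.0 and 55.0 normalized CPM against 0.527, 1.65 and 0.965. Tuba1a had 735, 670 and 749 against 745, 725 and 797, and Tuba1b 32.8, 31.8 and 33.7 against 29.4, 32.6 and 33.0. Neither of these 2 genes passed the test, and with all 3 added the level was 837 ± 45.1 against 789 ± 37.7. Gm20075 with Btf3l4 summed to 88.1 ± 5.35 against 82.6 ± 3.08, and Gm6472 with Rps7 to 213.0 ± 13.5 against 233.8 ± 9.78. For Gm6969 with Cox7a2l the sum was 57.3 ± 6.84 against 49.9 ± 1.74. Of the 9 copies outside the tubulin and glutathione transferase genes, those of Rpsa and Rpl14 have parents on chromosome 9, and those of Hmga1, Rnps1, Atp6v0c and Cox7a2l parents on chromosome 17.

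**Figure D3:**
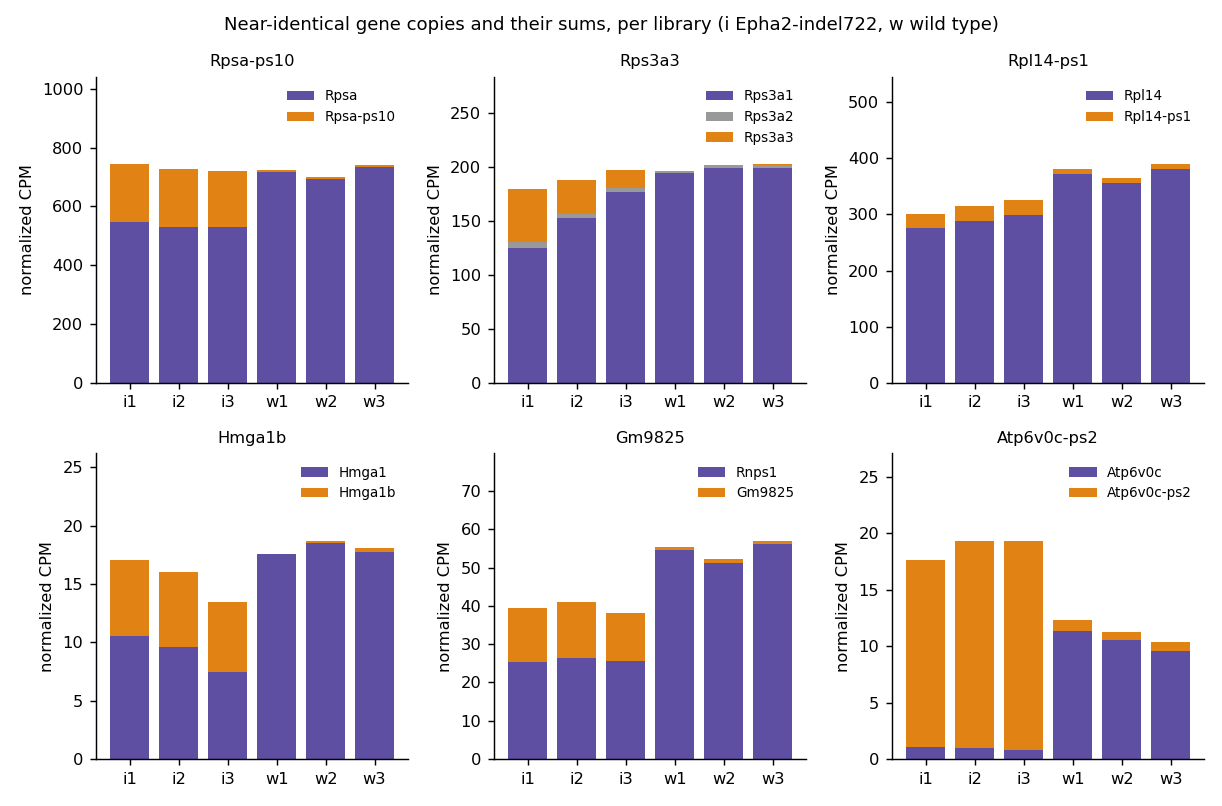
Normalized CPM per library of 6 near-identical copies (orange) stacked on their parents (purple, with Rps3a2 in grey), for the 3 Epha2-indel722 libraries (i1 to i3, left) and the 3 wild type libraries (w1 to w3, right). The stacks of Rpsa reach nearly the same height in both groups (731 against 722.3 on average), whereas those of Atp6v0c are higher and those of Rnps1 lower in Epha2-indel722.

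Among the lens genes, the number of crystallins past the test moved with the libraries and the test used. The members of the fiber list, which was chosen with earlier results known, changed at a higher share than all genes. Of 17 crystallins, 1 rose (Crygn, log2 fold change 0.23) and 1 fell (Cryab, -0.22), 11.8% against 13.1% of all genes, while 15 of the 17 were lower and their median was -0.22 (-0.06 with library totals, where the median of all genes is 0.17). Without Epha2-indel722 replicate 3, 1 rose and 5 fell. Without Epha2-indel722 replicate 1 or 2 or wild type replicate 1, 0 rose and 0 fell. The falls numbered 4 with DESeq2 and 6 with the classic exact test. Cryaa, the most abundant transcript, had 219471, 209856 and 214755 normalized CPM in Epha2-indel722 against 244995, 224605 and 245239 in wild type, a difference that did not pass the test (adjusted p = 0.16). Of 25 genes of fiber differentiation, 4 rose and 6 fell, a larger share than the 13.1% of all genes (6 and 3 with library totals), with a median of -0.08. That list includes Clic5 and Lgsn, which the study had already reported as lower in these lenses. It also includes Slc7a11 and Hmox1, which are counted again among the antioxidant genes below. The falls numbered 3 without wild type replicate 1 or 3. The risers were Slc7a11, Caprin2, the pointed-end actin cap gene Tmod1 (0.39) and Hsf4 (0.23), the heat shock factor of the lens. Caprin2, an RNA-granule protein of fiber cells, had 2252, 1951 and 1887 normalized CPM against 1334, 1141 and 1386 (0.66, adjusted p = 0.00089). Besides Clic5 and Lgsn, the falls were those of the heme oxygenase gene Hmox1 (-0.49), the transcription factor genes Maf (-0.29) and Sox1 (-0.22) and Mip (-0.20), the lens water channel. The gap junction gene Gja3, the cadherin gene Cdh2 and the catenin gene Ctnnb1, whose proteins were studied in these lines, had log2 fold changes of -0.12, -0.07 and 0.02 and did not pass the test.

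Of 18 genes of the lens epithelium, 5 fell and 1 rose (2 and 4 with library totals), 33.3% of the list, with a median of -0.11. The falls numbered 2 without wild type replicate 1 and 3 without wild type replicate 2 or any 1 of the Epha2-indel722 libraries. Beside Epha2, the falls were those of the growth factor binding gene Igfbp5 (83.3 ± 12.8 against 144 ± 11.5 normalized CPM, log2 fold change -0.79), Meis1 (-0.39), the connexin gene Gja1 (-0.38) and the glucose transporter gene Slc2a1 (-0.20). The rise was of Cdh1, the epithelial cadherin, which had 85.1, 91.5 and 84.6 normalized CPM in Epha2-indel722 against 55.9, 60.4 and 49.5 in wild type (0.66, adjusted p = 2.3e-06). Of 31 lens transcription factors 6 fell and 3 rose (0 and 8 with library totals), 29.0% of the list, the risers being Etv5 (0.41), the chromatin remodeler gene Smarca4 (0.26) and Hsf4. The falls numbered 2 without Epha2-indel722 replicate 3 or wild type replicate 1 or 3, and 3 without Epha2-indel722 replicate 1.

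In the Eph family and its partners, most of the changes were downward and modest. Among 10 EPH receptors and ephrins, Ephb2 (-0.33) and the ligand Efnb2 (-0.30) fell along with Epha2, and the kinase-inactive receptor Ephb6 rose (0.68), whereas with library totals 3 of the 10 rose and 1 fell. Without wild type replicate 3, 0 of the 10 rose and 2 fell. Of 26 signaling partners 4 fell and 0 rose (2 and 5 with library totals): Ngef, the ephexin that activates small GTPases downstream of EPHA receptors (55.2 ± 1.44 against 89.3 ± 1.54 normalized CPM, log2 fold change -0.69, adjusted p = 2.9e-05), the atypical small GTPase gene Rnd3 (-0.73), and the kinases Yes1 (-0.36) and Csk (-0.27). Without Epha2-indel722 replicate 2 or wild type replicate 2, the falls numbered 2. Src (-0.09) and cortactin, Cttn (0.06), did not pass the test. In the FGF receptor and ERK list of 25, 5 fell and 3 rose (0 and 6 with library totals), with the feedback gene Spry1 (-0.40), Fgfr2 (-0.36), Dusp7 (-0.39) and Etv1 (-0.33) among the lower and Dusp4, Etv5 and the adaptor Shc1 (0.40) the higher genes. The falls of that list numbered 3 without wild type replicate 1 or 3.

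In the other growth signaling lists more genes fell than rose with TMM scaling, and the balance turned with library totals. Of 33 Wnt and planar polarity genes 6 fell and 1 rose, with 26 members lower and a median of -0.18 (1 fell and 4 rose with library totals, median -0.01). The falls numbered 3 without Epha2-indel722 replicate 1 or wild type replicate 1, and 11 with the 6 libraries alone or the classic exact test. They were of the ligand Wnt5a (-0.62), the receptors Fzd2 (-0.47), Fzd1 (-0.32) and Lrp6 (-0.38), the polarity gene Prickle1 (-0.47) and the secreted inhibitor Sfrp1 (-0.20), and the rise was of the ligand Wnt7a (0.20). Of 39 genes of Notch, BMP, TGF-beta and Hippo signaling 7 fell and 1 rose (4 and 7 with library totals), with 18 members higher, 21 lower and a median of -0.004, among them Smad6 (-0.64), Tgfb1 (-0.50), the Notch target Hey1 (-0.49) and Yap1 (-0.24), with a rise of the latent TGF-beta binding gene Ltbp1 (0.58). All these changes were below 2-fold.

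The motor genes of microtubule transport rose more often than they fell. Of 29 kinesins and dyneins 7 rose (24.1%) and 1 fell, with a median of 0.09, and with library totals 14 rose and 0 fell. The rises numbered 4 without Epha2-indel722 replicate 1 or 2 or wild type replicate 1 or 2. The dynein light chains Dynll2 (525 ± 39.1 against 396 ± 47.8 normalized CPM, log2 fold change 0.41) and Dynll1 (0.23), the kinesins Kif5b (0.32), Kif3a (0.30), Kif1b and Kif1c (0.22 each) and the dynactin subunit Dctn1 (0.23) were higher, and the subunit Dctn3 was lower (-0.38). Of 26 tubulins and microtubule proteins 2 rose (Tuba1c and Dcdc2a) and 3 fell, these being Tubb2b (-0.45), Tuba4a (-0.53) and the destabilizer Stmn1 (-0.57), while with library totals 8 rose and 3 fell.

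Actin, adhesion and matrix genes moved in both directions. In the cortical actin and spectrin list of 50, 6 rose and 5 fell (16 and 1 with library totals): the spectrin Sptbn1 (0.46), Tmod1, Wasf2 (0.52), which promotes branched actin, and Ank3 (0.28) were higher, and the myosin light chain gene Myl9 (-0.61), Tpm4 (-0.39) and Cfl2 (-0.31) were among the lower. The rises of this list numbered 2 without Epha2-indel722 replicate 2 or wild type replicate 1 or 2, and 3 without Epha2-indel722 replicate 1 or wild type replicate 3. Its falls numbered 2 without Epha2-indel722 replicate 1 and 3 without Epha2-indel722 replicate 3 or any 1 of the wild type libraries. Of 18 cadherins and catenins 2 rose and 3 fell (3 and 2 with library totals, and 1 and 2 without Epha2-indel722 replicate 3). Cdh4, R-cadherin, had 11.8, 13.9 and 13.1 normalized CPM in Epha2-indel722 against 24.1, 32.0 and 28.5 in wild type (log2 fold change -1.13, adjusted p = 6.6e-09), opposite in direction to Cdh1, and alpha-catenin, Ctnna1, fell (-0.48). Of 23 integrin and adhesion genes 6 fell and 2 rose (1 and 3 with library totals), including the collagen receptor subunit Itga2 (-0.66) and Itgb8 (-0.53) among the falls and Itgb5 (0.32) among the rises. These falls numbered 2 without Epha2-indel722 replicate 1 or 3 or wild type replicate 1. The lens capsule and matrix list of 50 had 9 rises and 2 falls (14 and 0 with library totals): the basement membrane genes Lamb2 (0.86), Agrn (0.70) and Col4a4 (0.26), the protease gene Mmp14 (0.47), the collagen-modifying gene Plod1 (0.42) and Col26a1 (1.32) were among the higher, and Col4a5 (-0.21) among the lower.

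The chaperone list held the largest share of rises among the lists of at least 8 genes. Of 32 heat shock and cytosolic chaperone genes 11 rose (34.4%) and 4 fell, 25 were higher, and the median was 0.12. With library totals 21 rose and 0 fell. Without wild type replicate 1 the rises numbered 6 and the falls 2. The falls numbered 0 without Epha2-indel722 replicate 3, 1 without wild type replicate 3 and 2 without Epha2-indel722 replicate 1. Bag3, the co-chaperone of chaperone-assisted autophagy, had 27.2, 31.2 and 28.0 normalized CPM in Epha2-indel722 against 16.3, 15.7 and 16.4 in wild type (log2 fold change 0.84, adjusted p = 2.8e-06), and its partner small heat shock protein Hspb8 averaged 5.70 ± 0.994 against 2.99 ± 0.179 (0.91, adjusted p = 0.0010). Dnajb4 (0.53), Hspa4l (0.50), Dnajb1 (0.46) and Dnaja1 (0.25), which work with HSP70, the chaperonin subunits Cct8 (0.24), Cct3 (0.22) and Cct2 (0.18), and Ahsa1 and Hsp90aa1 of the HSP90 cycle rose by less than 1.5-fold. The falls were of the abundant constitutive HSP70 gene Hspa8 (842 ± 46.9 against 1086 ± 63.1 normalized CPM, -0.37), Hspa2 (-0.45), Hspb2 (-0.58) and Hspb6 (-0.31).

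Heat shock factor binds repeats of the element GAA and its complement TTC, and the promoters of these genes were searched for GAANNTTC, which reads the same on both strands. In RefSeq windows from 250 bases before to 50 after the gene start (GRCm38.p6), it was present in 452 of 6888 genes with a window (6.56%), in 12 of 26 chaperone genes (46.2%), in 4 of the 10 that rose and in 8 of the 16 that did not. The motif was thus common in the list whatever the change. The windows of Dnaja1 (chr4:40722328-40722367, plus strand) and Cct2 (chr10:117063394-117063433, minus strand) are shown as examples among the risers, with the match in capitals, beginning 124 and 42 bases before the gene start.
Dnaja1 promoter: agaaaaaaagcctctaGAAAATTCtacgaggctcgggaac
Cct2 promoter: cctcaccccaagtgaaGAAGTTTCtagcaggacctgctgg

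Of 43 proteasome genes 8 rose (18.6%) and 0 fell, 34 were higher and the median was 0.08. Without Epha2-indel722 replicate 3 or wild type replicate 1 the rises numbered 5. They included the ring subunits Psma5 (0.27) and Psma6 (0.23), the ATPase subunits Psmc1, Psmc2 and Psmc3 (0.22 to 0.25), Psmd1 (0.26) and Psmd6 (0.29), and the assembly factor Psmg4 (0.57). Of 32 genes of the unfolded protein response 4 rose and 0 fell, namely the ER chaperone Hspa5 (117 ± 6.52 against 90.6 ± 4.61 normalized CPM, 0.37), Selenos (0.34), Herpud1 (0.32) and Syvn1 (0.23), with a median of 0.01, and the rises numbered 2 without Epha2-indel722 replicate 1 or 2 or wild type replicate 2 or 3. Of 27 tRNA synthetases 3 rose and 0 fell, and of 62 translation factors 5 rose and 1 fell, with Eif5b, the ribosome-joining GTPase, at 1829 ± 61.7 against 1325 ± 65.2 normalized CPM (0.46). The rises among translation factors numbered 3 without Epha2-indel722 replicate 1 or wild type replicate 1 or 2. The shares of all genes that rose and fell, 6.73% and 6.37%, exceeded those of the 84 cytoplasmic ribosomal protein genes (2 and 3), the 75 mitochondrial ones (2 and 1) and the 70 splicing factors (3 and 0), and with library totals the cytoplasmic ribosomal genes had 20 rises and 3 falls.

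Lysosome and autophagy genes went both ways, with 7 rises and 6 falls among 76 (21 and 4 with library totals, and 10 falls with the 6 libraries alone). The cysteine protease gene Ctsl had 194.6 ± 32.6 against 103.8 ± 5.64 normalized CPM (log2 fold change 0.91, adjusted p = 2.1e-05), and the autophagy receptors Sqstm1 (0.73) and Optn rose too. The glycosidase genes Glb1 (-0.76) and Hexa (-0.59), the protease gene Ctsc (-0.64), the cholesterol exporter gene Npc1 (-0.43) and Pla2g16 (-0.30), a phospholipase of organelle breakdown in fibers, fell.

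**Figure D4:**
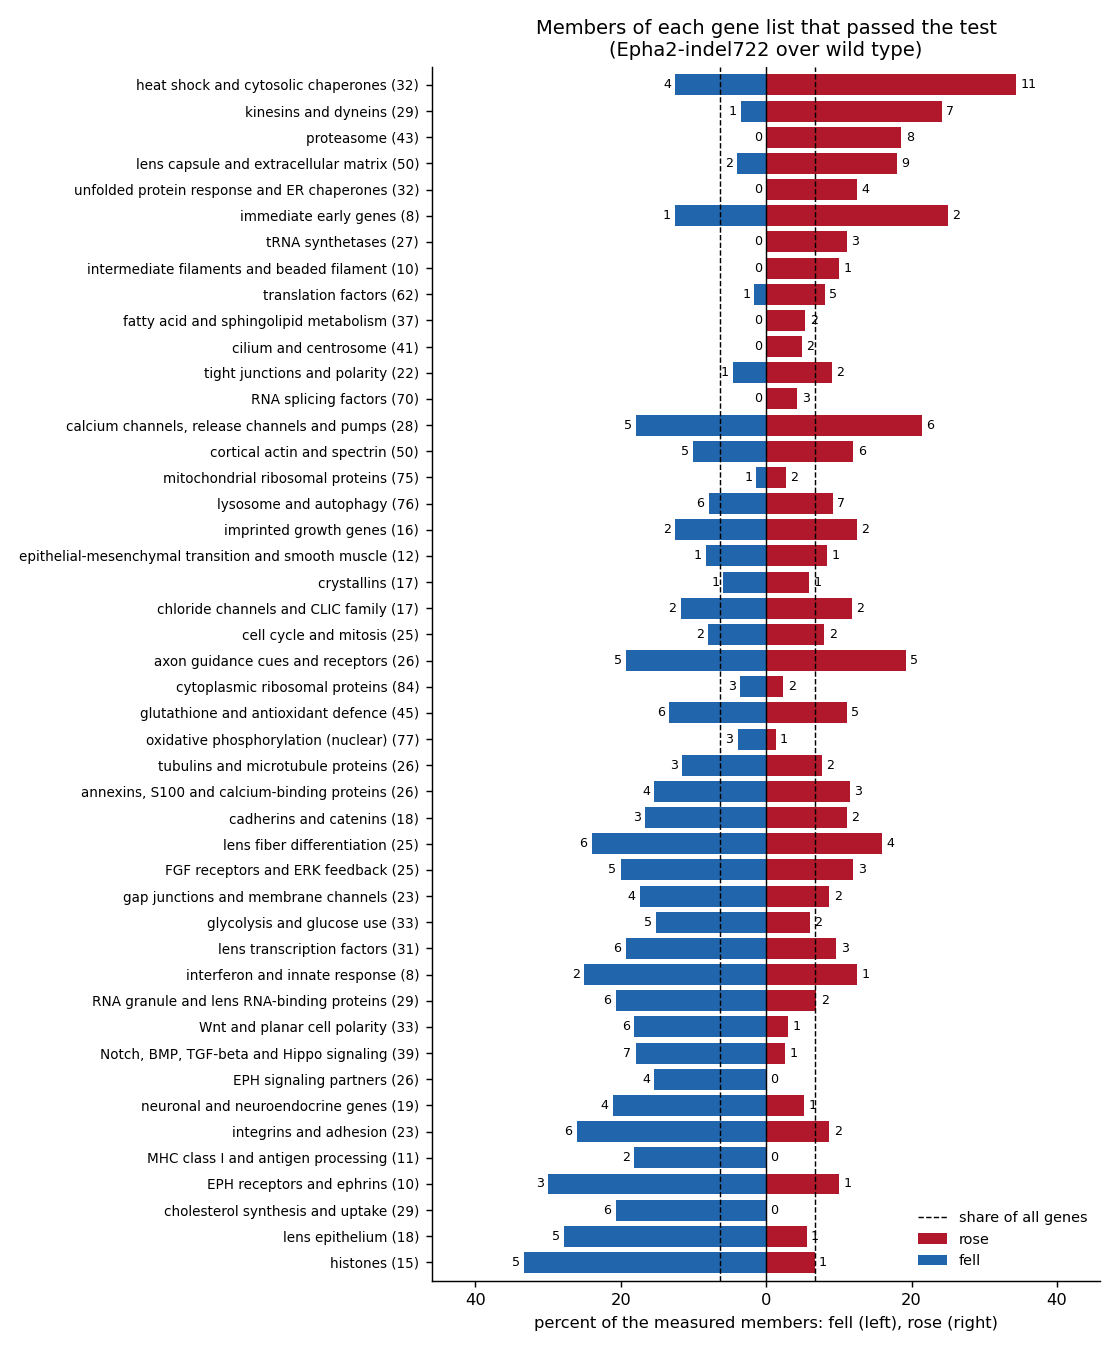
Share of the measured members (horizontal axis, percent, number of members in brackets) of each gene list of at least 8 members that fell (blue, left) or rose (red, right) in Epha2-indel722 at an adjusted p of at most 0.05 with TMM scaling, with the counts at the bar ends and dashed lines at the shares of all genes (6.37% and 6.73%). Chaperones, kinesins and dyneins, and the proteasome are at the top, and histones, lens epithelium, and cholesterol synthesis and uptake at the bottom. With library totals the falls of cholesterol synthesis drop to 3 of 29 with 4 rises, those of the lens epithelium to 2 of 18 with 4 rises, and those of histones to 2 of 15 with 3 rises.

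In the list of cholesterol synthesis and uptake, the genes that passed the test with TMM scaling were lower. Of 29, 6 fell and 0 rose (20.7% fell), while 11 members were higher and 18 lower, with a median of -0.06. With library totals 3 fell and 4 rose, and without Epha2-indel722 replicate 2 the falls numbered 3. Dhcr7, the last enzyme of the pathway, had 21.4, 19.2 and 19.2 normalized CPM in Epha2-indel722 against 51.6, 59.9 and 57.7 in wild type (log2 fold change -1.50, standard error 0.118, adjusted p = 6.3e-07). The others fell by less, among them Sc5d (-0.58) and Tm7sf2 (-0.44), which encode late steps, Npc1, and Hmgcs1 (-0.26), an early step. In fatty acid and sphingolipid metabolism 2 of 37 rose, Acer2 and the ceramide synthase Cers5 (0.55), and 0 fell.

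Antioxidant and energy genes were mixed. Of 45 glutathione and antioxidant genes 5 rose and 6 fell (11 and 2 with library totals). The transferases Gstp1, Gstp2, Gsta4 (0.94) and Gstm1 (0.28) rose with Slc7a11, while Gclc (-0.58), the catalytic subunit of the first step of glutathione synthesis, Hmox1, the catalase gene Cat (-0.42) and the glutathione peroxidase gene Gpx1 (203 ± 2.02 against 256 ± 8.89 normalized CPM, -0.34) fell. In glycolysis 5 of 33 fell and 2 rose (1 and 16 with library totals), with the neuronal enolase gene Eno2 (-0.85), Hk2 (-0.34), Pkm (-0.30), Vegfa (-0.32) and Slc2a1 lower and Pgk1 (0.27) and Ldha (0.20) higher, and Pygl, the liver-type glycogen phosphorylase, fell by 1.18. Of 77 nuclear genes of oxidative phosphorylation 1 rose and 3 fell (31 and 0 with library totals).

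Calcium handling and guidance genes changed in both directions. Of 28 calcium channel, release and pump genes 6 rose and 5 fell (10 and 4 with library totals). The rises numbered 2 without Epha2-indel722 replicate 1, and 3 without Epha2-indel722 replicate 2 or 3 or wild type replicate 1 or 3. The P/Q-type channel gene Cacna1a (0.90), the inositol trisphosphate receptor gene Itpr3 (0.72) and the mitochondrial uptake regulator Micu2 (0.21) were among the higher, and Camk2n1, the T-type channel gene Cacna1h (1.46 ± 0.234 against 4.52 ± 0.840 normalized CPM, log2 fold change -1.63), the L-type channel gene Cacna1d (-0.59), Camk2d (-0.62) and the plasma membrane pump Atp2b1 (-0.44) were lower. Of 26 axon guidance genes 5 rose and 5 fell (10 and 1 with library totals), with Draxin, Robo1 (0.46), Plxna3 (0.40) and Neo1 (0.36) higher and the netrin receptor Unc5b (-1.21), Sema5b (-0.45) and Sema3a (-0.32) lower. In this list the falls numbered 3 without Epha2-indel722 replicate 1 or 2 or wild type replicate 2 or 3, and the rises 3 without wild type replicate 3. Of 15 histone genes 5 fell and 1 rose (2 and 3 with library totals), the falls being of linker histones such as H1f0 (-0.43) and Hist1h1c (-0.39) and of Hist3h2a, Hist1h4h and Hist1h1e, and they numbered 3 whichever library was left out. The cell cycle inhibitors Cdkn1c (-0.43) and Cdkn1b (-0.39) fell, and Cenpf (0.91) and Mcm7 (0.32) rose, out of 25 cell cycle genes (6 rises and 1 fall with library totals). Without wild type replicate 1 that list had 1 rise and 1 fall.

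Of 12 genes of epithelial-mesenchymal transition and smooth muscle 1 rose (Cald1, 0.25) and 1 fell (Tpm1, -0.25), and Acta2, smooth muscle actin, averaged 61.3 ± 11.4 against 57.2 ± 11.1 normalized CPM (adjusted p = 0.88). Of 41 cilium and centrosome genes 2 rose, Dcdc2a and Ift46 (0.55), and 0 fell. Of 29 RNA granule and RNA-binding genes 2 rose and 6 fell (7 and 1 with library totals), the risers being Caprin2 and Caprin1 (0.19) and the falls including Ddx6 (-0.50), Ptbp2 (-0.49) and the lens regulator Rbm24 (-0.23), with 3 falls without wild type replicate 1. Gap junction and membrane channel genes had 2 rises and 4 falls among 23 (4 and 0 with library totals), and annexin, S100 and calcium-binding genes 3 and 4 among 26 (6 and 1 with library totals). Leaving out any 1 library gave 1 to 3 falls in the first of these lists and 1 to 4 in the second. Neuronal genes had 1 rise and 4 falls among 19, imprinted growth genes 2 and 2 among 16, and chloride channel and CLIC genes 2 and 2 among 17 (1 and 1 without Epha2-indel722 replicate 2). The interferon and immediate early lists held 8 measured genes each, with 1 rise and 2 falls and with 2 rises and 1 fall. The share of changed genes in the RNA granule list (27.6%) and in each of these 7 lists (23.5% to 37.5%) was above the 13.1% of all genes. In intermediate filaments Nes, a neural and lens filament gene, rose (0.86) out of 10. Stard9, a kinesin-like gene that the study discusses, had 0.708, 0.740 and 0.919 normalized CPM in Epha2-indel722 against 0.452, 1.118 and 0.454 in wild type, overlapping groups, and the test found no difference (adjusted p = 0.80).

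Tests in the same fit set Epha2-indel722 against the other mutants, which share no library with it. Of the 88 genes changed at least 2-fold from wild type, 59 also differed from Epha2-Q722 and 68 from Epha2-null at an adjusted p of at most 0.05, and 45 from both (12.4% and 9.85% of all genes differed in these tests). The 88 were picked with the same Epha2-indel722 libraries that enter these tests. A share above that of all genes was therefore partly built in. Clic5 averaged 0.0739 ± 0.0887 normalized CPM in Epha2-indel722 against 114 ± 33.2 in Epha2-Q722, 46.8 ± 24.6 in Epha2-null and 133 ± 10.999 in wild type, and differed from each (adjusted p = 5.9e-05 and 0.00024 against the mutants). Nipal3, Rab6b, Draxin, Grik3, Ece1 and Efhd2 also differed from both. For Nipal3 the values were 1.21 ± 0.217 in Epha2-indel722, 36.6 ± 1.22 in Epha2-Q722, 41.2 ± 3.90 in Epha2-null and 36.7 ± 4.20 in wild type.

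For other genes the level in Epha2-indel722 lay near that of one of the mutants. Acer2 averaged 123 ± 2.68 normalized CPM in Epha2-indel722, 126 ± 11.9 in Epha2-Q722, 7.22 ± 0.539 in Epha2-null and 6.98 ± 1.498 in wild type, with a log2 difference of -0.03 from Epha2-Q722 (adjusted p = 0.89). H2-T24, Atp6v0c and Rnps1 likewise had no difference from Epha2-Q722 that passed the test. Gstp1 averaged 400 ± 16.8 in Epha2-indel722, 178 ± 11.3 in Epha2-Q722, 417 ± 14.5 in Epha2-null and 195 ± 13.5 in wild type, with a log2 difference of -0.06 from Epha2-null (adjusted p = 0.63), and Dcdc2a and Dusp4 were placed in the same way. The 6 genes that differed from neither were Col26a1, Rsad2, Pros1, Npr1, Avp and Gm10382. A difference that misses the threshold does not show equal levels. Each mutant is compared with the same wild type libraries, so agreement between mutants in those comparisons is not independent.

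The changed genes were unevenly spread over the chromosomes. Chromosome 4, which carries Epha2, held 122 changed genes of 574 (21.3%) and 23 of the 88 changed at least 2-fold. Chromosome 9 held 111 of 491 (22.6%) and 11 of the 88, and chromosome 17 held 60 of 407 (14.7%) and 9 of the 88. These 3 chromosomes were picked for the highest shares of 2-fold changes among chromosomes with over 20 genes, and together they held 43 of the 88 in 1472 genes (2.92%), against 45 in 7203 genes of the other chromosomes (0.625%). On chromosome 4 the share of changed genes was 37.0% within 5 Mb of Epha2 (17 of 46, Epha2 itself left out), 21.8% at 5 to 20 Mb, 19.9% at 20 to 60 Mb and 17.2% beyond 60 Mb. The 4 genes changed at least 2-fold within 5 Mb were Efhd2 (0.551 Mb from Epha2), Fhad1 (0.637 Mb), Camk2n1 (2.86 Mb) and Ece1 (3.40 Mb), and Nipal3 (5.85 Mb), Draxin (6.80 Mb) and Gm13091 (9.25 Mb) lay a little farther away. On chromosome 9 are Lyzl4, Rab6b, Rpsa, Rpl14, Glb1 and Bfsp2, and on chromosome 17 Clic5, H2-T24, Atp6v0c, Rnps1, Hmga1, Cacna1h and Zfp758. Lgsn, on chromosome 1, and Tuba1c, on chromosome 15, are on none of the 3. Effects of the allele and of founder DNA carried with it cannot be told apart in a line from 1 founder.

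**Figure D5:**
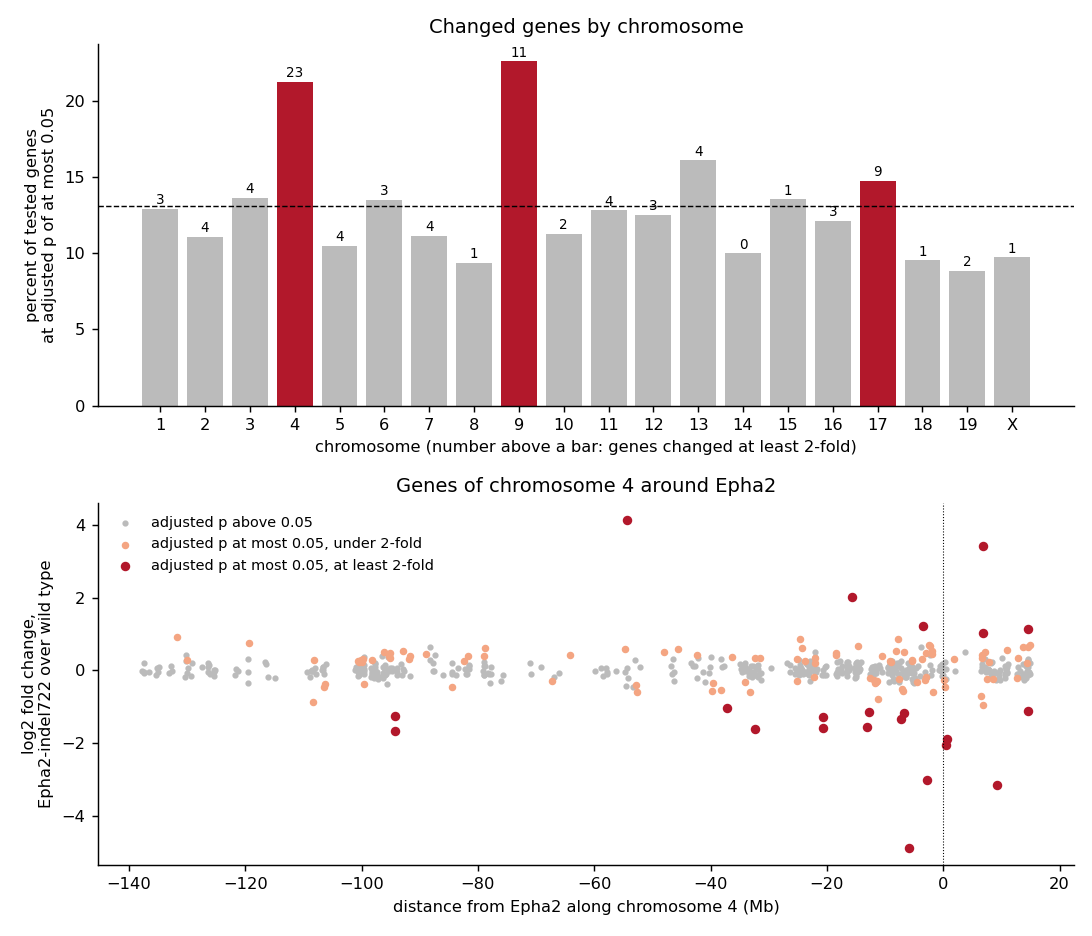
Top, percent of tested genes on each chromosome with at least 20 tested genes that passed an adjusted p of 0.05, with the number changed at least 2-fold above each bar, chromosomes 4, 9 and 17 in red and the share of all genes (13.1%) as a dashed line. Bottom, log2 fold change of the chromosome 4 genes against their distance from Epha2 in Mb, with most of the 2-fold changes (red) within 20 Mb of Epha2.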

How the data were processed

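Lenses were sequenced as polyA RNA in 12 libraries, 3 for each of 4 genotypes. The authors deposited whole-number read counts per gene for each library beside CPM values, which are counts scaled to library size. Every deposited gene had at least 3 CPM in at least 6 of the 12 libraries. Genes near silent in wild type, such as Tuba1c and Rps3a3, are therefore listed only through mutant libraries in which they are higher. The submitters' processing notes name STAR 2.5.3a, SAMtools 1.4.1, HTSeq 0.11.0 and build mm10, and the strand setting of the counting is not given in the sources used here. The deposited columns of log2 fold change, mean log2 CPM, p-value and FDR from the authors' own comparisons were not used, and the CPM values were not used in tests.

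The counts of all 12 libraries were fitted in edgeR 4.0.16 (limma 3.58.1, R 4.3.3) by the quasi-likelihood test after TMM scaling, with a term for genotype and no other. A change was called at an adjusted p of at most 0.05, and where stated at a fold of at least 2. On simulated counts for this comparison, over 8676 genes, 42 of 50 genes changed 1.5-fold and 49 of 50 changed 2-fold passed the adjusted p, with 11 of 8476 unchanged genes. Near-identical transcripts (at least 95% identity over 200 bases) were found with BLAST+ 2.17.0 (Python 3.11.15).

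Genes named were those discussed in the study, the 15 largest rises and falls of at least 2-fold without overlap, the 10 rises and falls largest in CPM, the 10 of smallest p below 2-fold, and up to 6 members of each list and direction. Copies and their parents, genes of large library spread, neighbors of Epha2 or of a named gene, and further list members or 2-fold changes (such as Ece1, Slc1a4, Pygl, Pros1, Npr1, Gm10382, Cryaa, Bfsp1 and Yap1) were added after their values were seen. A few genes that the rule names are not reported here. The members and gene lists were chosen with earlier results of these data known. Alternatives were another normalization (RLE factors, library totals, scaling without crystallins), DESeq2 1.42.0, the classic exact test, the 6 libraries alone, a filter at 10 CPM, a replicate block and leaving out each library. Nothing in the labels says that replicates differ in more than the pool of lenses, and the sex mix of the pools, which Xist and Ddx3y show to differ, was not a term in the fit. Intervals and count floors (3 counts) cover counting error only.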

Additional observations from a re-analysis of the deposited data

How the results depend on the processing

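With library totals in place of TMM factors, 2388 genes passed the adjusted p (2178 higher, 210 lower, against 584 and 553) and 66 were higher by at least 2-fold, against 38. The median over all genes is 0.17 (log2) there, so directions of small changes depend on the scaling. With a mean of at least 10 CPM, which leaves 5383 genes to test, 40 changed at least 2-fold (18 higher, 22 lower). filterByExpr removed 0 genes, from a table that already held only genes with at least 3 CPM in at least 6 libraries. Leaving out 1 library gave 85 to 95 genes changed at least 2-fold (34 to 41 higher, 48 to 55 lower) and 766 to 911 past the adjusted p (369 to 468 higher, 379 to 443 lower). Without Epha2-indel722 replicate 2 the rises numbered 386 and without WT replicate 1 they numbered 369, the 2 cases more than 1.5 times below 584. The other alternatives (6 libraries alone, RLE factors, scaling without crystallins, DESeq2, classic exact test) kept each count within 1.5 times.

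The replicate numbers did not pair the samples: same-numbered Epha2-indel722 and WT libraries had correlations of deviations of 0.03, 0.04 and -0.03. With the replicate block 88 genes changed at least 2-fold and 1115 passed the adjusted p.

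Of 229 genes named, 210 passed the test. Under library totals 50 of all those named no longer did, and 6 that had not passed turned direction, namely Cdh2 (0.10), Cox7a2l (0.14), Cryaa (0.017), Gja3 (0.043), Src (0.074) and Tuba1a (0.092). Leaving out 1 library turned the sign of 6 small differences that did not pass the test. Their ranges were -0.061 to 0.218 for Acta2, -0.012 to 0.084 for Bfsp1, -0.11 to 0.031 for Cox7a2l, -0.016 to 0.050 for Ctnnb1, -0.081 to 0.766 for Stard9 and -0.013 to 0.066 for Tuba1b. DESeq2 lost 18 of the calls and leaving out 1 library 36 to 49. The count of members called moved by over 1.5 times in 19 of 46 lists with library totals, in 10 with the classic exact test, in 9 with a mean of at least 10 CPM and in 10 to 18 on leaving out 1 library (18 without WT replicate 1). The causes were not tested.

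Precision was limited by 3 pools a group. Low genes such as Stard9 carried wide errors. Pools of several animals hide variation between animals, and the mutant line descends from 1 founder.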
